A study of Mus musculus with 187 samples.

Results

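The BXD strains are a family of inbred mouse strains descended from a cross of C57BL/6J and DBA/2J, and their heart transcriptomes were described here together with those of both parents. All libraries whose strain label starts with BXD, and all libraries labelled C57BL/6J or DBA/2J, were taken, which gave 84 of the heart libraries of the series, the other 103 being from other strains. They comprised 79 libraries from 45 BXD strains, 3 C57BL/6J libraries (2 males and 1 female) and 2 DBA/2J libraries (1 male and 1 female). A male and a female library were present for 34 BXD strains, 6 strains had a male alone and 5 had a female alone.

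The wider study surveyed a panel of inbred strains for genetic factors and sex differences that act on heart function. The mice were kept on chow for 8 weeks and were then switched to a diet high in fat and sucrose for another 8, and hearts were taken at 16 weeks of age. No group on chow alone was among the libraries, so diet was shared by the BXD strains and both parents. Of the BXD strains, 19 carry the suffix TyJ and 26 the suffix RwwJ, and 1 of them, BXD24/TyJ-Cep290<rd16>/J, is named for a retinal mutation. A library stands for a single mouse, so a BXD strain was represented by at most 1 male and 1 female, and p-values measure the spread between those mice after a sex term.

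In a recombinant inbred strain each stretch of chromosome has become fixed for the allele of either parent. A gene whose level depends on a variant nearby is therefore expected at a C57BL/6J level in some strains and at a DBA/2J level in the others, while a gene under the influence of many loci is spread over a continuous range. The older TyJ strains came from an intercross of hybrid mice, and most RwwJ strains came from an advanced intercross in which more generations of recombination preceded inbreeding.

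Libraries held 28.99 M to 73.59 M estimated counts (M standing for mega), with a median of 44.81 M, and 15365 genes passed a filter of at least 0.5 CPM (counts per M counts of the library) in at least 8 libraries. Cardiomyocyte markers (Myh6, Tnnt2, Actc1, Ryr2, Pln, Myl2 and Tnni3) summed to between 39690 and 76030 CPM in the BXD libraries, and none of the 7 was at 0 in all libraries. Transcripts of the mitochondrial genome took 38.6% to 43.7% of the counts in C57BL/6J, 28.7% to 30.1% in DBA/2J and 23.3% to 53.6% in the BXD libraries. In 8 BXD libraries (BXD6/TyJ female, BXD9/TyJ male, both of BXD19/TyJ, BXD24/TyJ-Cep290<rd16>/J male, BXD51/RwwJ female, BXD60/RwwJ male and BXD73/RwwJ female) the median gene deviated from its median over libraries by 0.271 to 0.579 log2, against 0.081 to 0.218 in the other 76 libraries. Their log2 level also fell with transcript length, with slopes of -0.542 to -0.218 against -0.16 to 0.109 in the others, and counts without them are given beside several of the results.

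Genes that differed between the parents were compared first, since they define what the BXD strains could inherit. Myh7, the slow myosin heavy chain of the fetal and stressed ventricle, Acta1, skeletal alpha-actin, and the potassium channel subunit gene Kcnj14 were higher in DBA/2J hearts, whereas Actc1, cardiac alpha-actin, Kcnj11, a pore subunit of the ATP-sensitive potassium channel, and Tnni3k, a cardiac kinase, were higher in C57BL/6J hearts. In edgeR's quasi-likelihood test with Benjamini-Hochberg adjustment, 1509 of 15365 genes (9.82%) passed an adjusted p of 0.05. The count was 822 or 915 with either DBA/2J library left out and 2445 without the 8 BXD libraries that stood apart. Of these, 848 were higher in DBA/2J (5.52% of genes tested) and 661 were higher in C57BL/6J (4.3%). The share higher in DBA/2J was 56.2% with TMM scaling but 88% with scaling to library totals, which moved the median of all genes by 0.28 log2 towards DBA/2J, and 93.3% on log2(TPM + 1), with a median shift of 0.32. Directions of small parental differences therefore hold relative to that shift.

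The same genes were then followed into the BXD strains. For each gene the 45 strain means of log2 CPM were fitted with 1 normal distribution and with a mixture of 2, and a gene was called bimodal when the mixture lowered the Bayesian information criterion (BIC) by over 10, its means lay at least 3 component SDs apart and each class held at least 15% of strains. The parents did not enter this fit. Of the 15365 genes, 760 (4.95%) were bimodal, and in 621 (4.04%) the parents fell in opposite classes. With classes of at least 10% of strains these counts were 1636 and 623. Among the genes that differed between the parents 564 of 1509 (37.4%) were bimodal, and in all of these 564 the parents sat in opposite classes. The share was 30.3% of the 1259 protein-coding genes called between the parents and 76.1% of the 218 pseudogenes. Among the 13856 genes with no parental call, 196 (1.41%) were bimodal. Without the 8 libraries that stood apart, 741 bimodal genes had the parents in opposite classes, and 41.4% of the genes called between the parents were bimodal. The share was thus larger among genes that differed between the parents, though most of them did not split by this rule.

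The share that split was larger where the parental difference was larger. It was 1.12% of 9075 genes with an absolute difference under 0.25 log2, 7.58% of 1873 genes between 0.5 and 1, 17.5% of 771 genes between 1 and 2, and 60.7% of 535 genes at 2 or more. The share of genes that varied among BXD strains went from 21.2% in the lowest range to 87.3% in the highest.

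**Figure D1:**
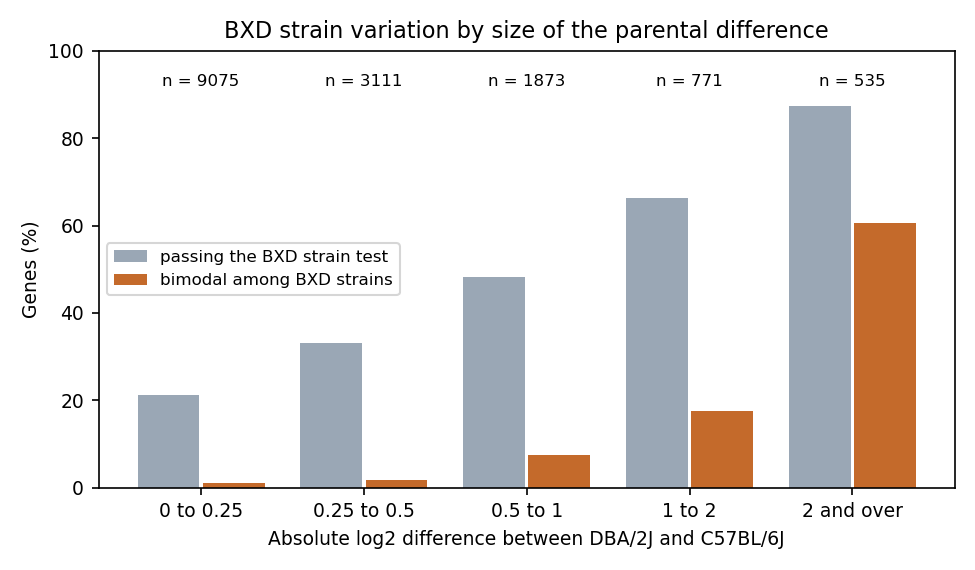
Percentage of genes (vertical axis) that varied among the BXD strains in edgeR's quasi-likelihood test (grey) or were bimodal over the BXD strains (orange), by the absolute log2 difference between DBA/2J and C57BL/6J (horizontal axis), with the number of genes above each range. Both shares climb from left to right, the bimodal share from 1.12% to 60.7%.

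The class levels of the BXD strains lay close to the parental levels. Over the 621 genes with the parents in opposite classes, the difference between the BXD classes was 1.01 times the difference between the parents at the median, with quartiles of 0.891 and 1.16. The classes differed by a median of 2.11 log2, with a range of 0.28 to 9.77. A median of 22 of 45 strains (range 7 to 38) fell in the DBA/2J class, and 49% of all calls were DBA/2J-like. Strain levels did not overlap between the classes in 585 of the 621 genes. The classes were cut from these same strain means, so this is nearly fixed by the rule. DBA/2J sat in the upper class for 358 genes and C57BL/6J for 263. In protein-coding genes the split was 196 to 233, and in pseudogenes DBA/2J sat in the upper class in 88%.

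Of the 17 genes of the sarcomere list 3 were bimodal, and in 2 of them the parents were in opposite classes, against 4.95% and 4.04% of all genes. Myh7 (ENSMUSG00000053093, chromosome 14, 54970684 to 54994626, GRCm38) stood at 269, 226 and 270 CPM in the C57BL/6J libraries and at 1713 and 2468 CPM in the DBA/2J libraries. The lower class of 14 BXD strains ran from 192 to 631 CPM with a median of 282, and the upper class of 31 strains ran from 879 to 3929 CPM with a median of 2494. The male and female of a strain were in the same class in 34 of 34 strains. The parental difference was 3.04 log2 (SE 0.32, edgeR adjusted p 1.85e-09).

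Actc1 (ENSMUSG00000068614, chromosome 2, 114047282 to 114053548), which encodes the main actin of the adult heart, split in the opposite parental direction. Its level was 6790, 4387 and 6176 CPM in C57BL/6J and 3147 and 2913 CPM in DBA/2J. The 19 strains of the lower class ran from 2752 to 4123 CPM and the 26 of the upper class from 5258 to 8209 CPM. The sexes were in the same class in 34 of 34 strains. Acta1, by contrast, was higher in DBA/2J by 4.03 log2 (SE 0.80, edgeR adjusted p 3.29e-04) but was not bimodal. It stood at 157.1, 22.5 and 208 CPM in C57BL/6J and at 2058 and 1293 CPM in DBA/2J, and BXD strains filled the range from 80.9 to 2934 CPM with a median of 516.

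A few bimodal genes encode ion channel subunits, though 1 of the 16 genes of the ion channel list was bimodal, a share near the 4.95% of all genes. Kcnj11 (chromosome 7, 46093953 to 46100764) stood at 134.4, 136.1 and 144.4 CPM in C57BL/6J and 72.5 and 75.2 CPM in DBA/2J, with 12 strains at 67.96 to 87.5 CPM and 33 strains at 110 to 170 CPM. Kcnj14 (chromosome 7, 45816460 to 45824782), an inward rectifier subunit, stood at 1.33, 0.228 and 1.12 CPM in C57BL/6J and 80.8 and 50.3 CPM in DBA/2J. It was below 6.35 CPM or at that level in 33 strains and between 39.1 and 82.1 CPM in the other 12. Both genes placed 12 strains in the DBA/2J class. Cacna1h, a T-type calcium channel subunit, was higher in C57BL/6J by 3.74 log2 units, written as a DBA/2J minus C57BL/6J difference of -3.74 (SE 0.64, edgeR adjusted p 3.03e-05), and its classes of 21 and 24 strains had medians of 1.67 and 22.6 CPM.

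Some bimodal genes with large parental differences have roles in immunity, although in the functional lists 1 of 18 interferon response genes and 0 of 19 antigen presentation genes were bimodal, against 4.95% of all genes. Ifi202b (chromosome 1, 173962568 to 173982744), an interferon-inducible DNA-binding protein, stood at 0.0375, 0.0207 and 0.0286 CPM in C57BL/6J and at 11.6 and 12.05 CPM in DBA/2J. In 24 BXD strains it was at 0.0607 CPM or less, and in 21 strains it was at 3.46 to 13.6 CPM. Gvin1, a large interferon-inducible GTPase, went the other way, with 58.4, 56.9 and 53.8 CPM in C57BL/6J, 0.870 and 0.0578 CPM in DBA/2J, and BXD class medians of 0.228 and 42.7 CPM in 20 and 25 strains. Trim12a, of a family of antiviral tripartite motif proteins, had class medians of 0.66 and 13.2 CPM in 20 and 25 strains. Mndal, a relative of Ifi202b on the same chromosome, was the reverse of it, with medians of 1.64 CPM in 21 strains and 19.4 CPM in 24.

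H2-Ea-ps, annotated as a pseudogene because C57BL/6J does not express this class II alpha chain, stood at 0.0375, 0.0207 and 0.0286 CPM in C57BL/6J and at 13.8 and 12 CPM in DBA/2J. Its 21 lower strains reached 0.0558 CPM at most and its 24 upper strains began at 4.15 CPM. H2-Q2, a class I gene near it on chromosome 17, had the same class sizes, with medians of 0.0504 and 8.57 CPM. No fold is given for these genes, because the lower class rests on a few counts per library.

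Single genes of other functions also split, although 0 of 20 fatty acid oxidation genes and 2 of 74 nuclear oxidative phosphorylation genes of the functional lists were bimodal. Glo1, glyoxalase I, stood at 74.8, 64.1 and 75.8 CPM in C57BL/6J and 140.8 and 132.8 CPM in DBA/2J, with 25 strains at 64.7 to 94.9 CPM and 20 strains at 116.3 to 172.1 CPM. Alad, an early enzyme of heme synthesis, had class medians of 31.3 CPM in 21 strains and 97.9 CPM in 24. Tnni3k stood at 97.3, 74.5 and 94.8 CPM in C57BL/6J and 25.7 and 24.2 CPM in DBA/2J, and its classes of 18 and 27 strains had medians of 24.1 and 89.2 CPM. Differences in these genes between the parent strains were chosen from prior knowledge of the strains, so their direction is not independent evidence. Of the 11 genes of that list with values past the filter, 5 were bimodal (Glo1, Alad, Tnni3k, H2-Ea-ps and Gpnmb) and 10 varied among strains, against 4.95% and 31.5% of all genes.

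Among the largest parental differences, Hamp2, a gene of the hepcidin family, had class medians of 0.215 CPM in 26 strains and 20.4 CPM in 19. Stab2, a scavenger receptor for hyaluronan, had medians of 1.02 CPM in 35 strains and 32.3 CPM in 10, a parental difference of 5.97 log2 (SE 0.38). Fmn1, an actin-nucleating formin, had medians of 2.09 and 72.9 CPM in 24 and 21 strains. On the C57BL/6J side, Pttg1, securin, had medians of 1.93 and 36.6 CPM in 22 and 23 strains, Lgr6, a receptor of the R-spondin family of ligands, had 6.38 and 47.1 CPM in 14 and 31 strains, and Fbxo44, a ubiquitin ligase adaptor, had 0.978 and 12.3 CPM in 20 and 25 strains. For each of these 6 genes the sexes were in the same class in 34 of 34 strains, as they were in 232 of the 621 genes, where the median was 33. The number was 33 for Kcnj14, Glo1, Alad and Eps8l1, 32 for Cacna1h, and 31 for Gvin1, Gpnmb and Asph. No baseline was computed for these numbers, and bimodality was called on means over both sexes. Sln, bimodal with 38 and 7 strains, reached 29 without passing the test for strain differences (edgeR adjusted p 0.808). The remaining genes with the largest differences towards DBA/2J were Hmga1b (medians of 0.241 and 35.1 CPM), Tpm3-rs7 (0.265 and 28.3 CPM), Eno1b (0.347 and 50.3 CPM) and Pianp (0.799 and 7.97 CPM). Those towards C57BL/6J were Nxpe4 (0.292 and 9.12 CPM), Rab6b, a neuronal Rab GTPase (0.9 and 13.5 CPM), and Eps8l1, an adaptor of actin regulation (0.336 and 6.20 CPM). Hmga1b, Tpm3-rs7 and Eno1b are close copies of Hmga1, Tpm3 and Eno1, so the division of reads between copies is uncertain.

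**Figure D2:**
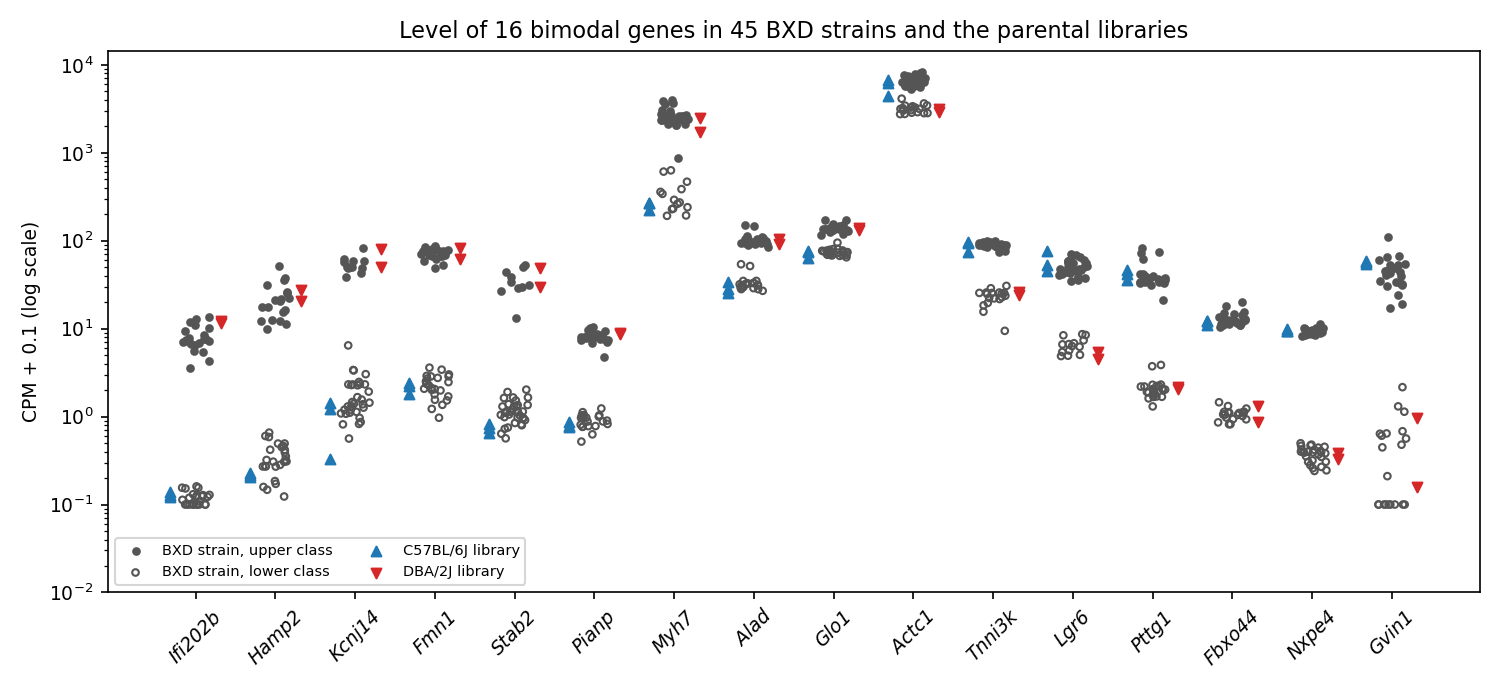
Level of 16 bimodal genes as CPM + 0.1 on a log scale (vertical axis). Circles are the 45 BXD strain means, filled for the upper and open for the lower class, triangles pointing up are the 3 C57BL/6J libraries and those pointing down the 2 DBA/2J libraries. For Myh7, 14 strains lie with C57BL/6J at 192 to 631 CPM and 31 with DBA/2J at 879 to 3929 CPM.

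At the edge of the rule, Uvrag (BIC fall 10.04), Rpl3 (10.11) and Peg12 (10.11) were the last genes counted as bimodal, and Ccdc65 (9.99), Sash1 (9.99) and Sfr1 (9.94) were the first left out. In the other bimodal genes the parents shared a class, and 30 of these (21.6%, against 31.5% of all genes) varied among strains, with a median intraclass correlation of 0.18.

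Whether the classes held between independent mice was examined by fitting the sexes apart. In males alone 723 genes were bimodal, in females alone 561, and 432 in both. Genes bimodal in males gave a median of 32 of 34 strains in the same class in the females, and genes bimodal in females gave 33 of 34 in the males. Of the 432 genes bimodal in both sexes, the strain with the most disagreements was BXD73/RwwJ, with 98 genes (22.7%), followed by BXD9/TyJ with 63 (14.6%), BXD20/TyJ with 60 (13.9%) and BXD6/TyJ with 53 (12.3%). The fewest were in BXD45/RwwJ, with 20 genes (4.63%). A library that stood apart belongs to 3 of these first 4 strains; its part in the disagreement was not tested.

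Agreement between the libraries of a strain was measured over 1375 genes called on the 5 parental libraries alone, so that no BXD library chose them. The male and female of a strain correlated with a median r of 0.858 across genes, and libraries of different strains with a median r of -0.0245. Each gene was taken relative to its level over the libraries, which places r between strains near 0 by construction. The value near 0 therefore does not mean that hearts of different strains have unrelated expression. For 68 of 68 libraries the library of its own strain ranked first among at least 39 libraries of the other sex. The lowest value for a strain was 0.48 in BXD73/RwwJ, then 0.676 in BXD6/TyJ and 0.704 in BXD9/TyJ, and the highest value between strains was 0.445. Genes are not independent replicates, so no p is attached to these values. Without the 8 libraries that stood apart, 58 of 58 libraries ranked their own strain first, and over all genes past the filter 62 of 68 did.

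**Figure D3:**
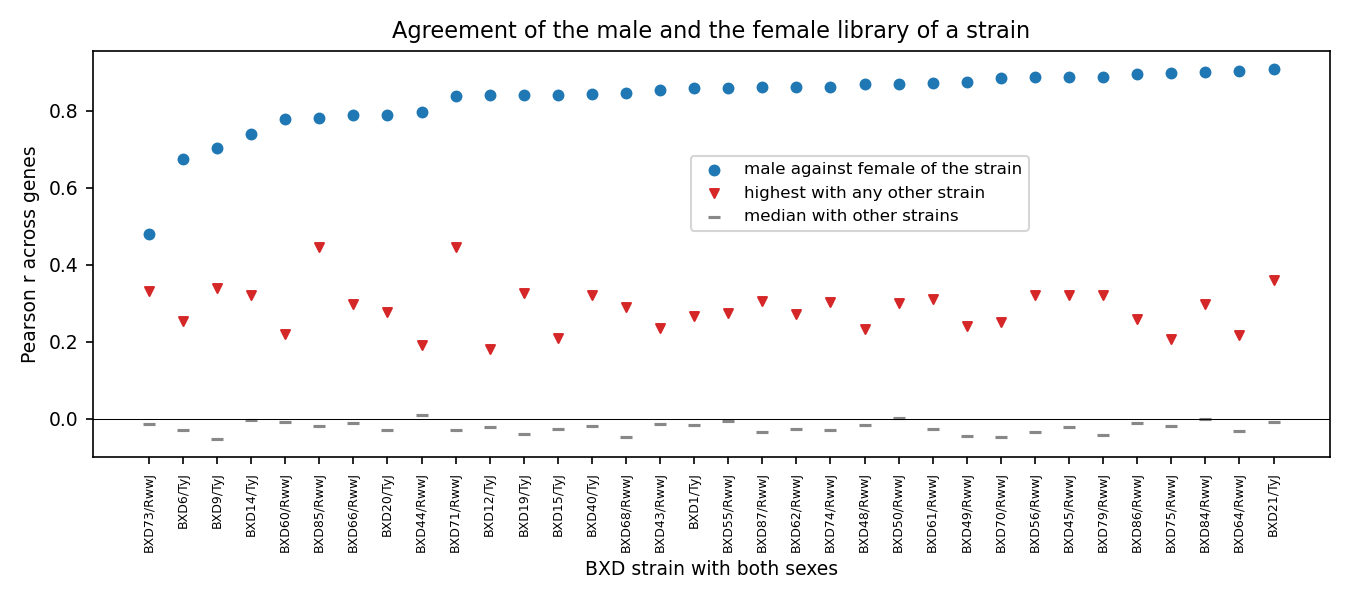
Pearson r across 1375 genes (vertical axis) between the male and the female library of each BXD strain with both sexes (blue), with the highest (red) and median (grey) r against other strains. The blue points run from 0.48 in BXD73/RwwJ to 0.908, and no red point passes 0.445. Grey values lie near 0 because each gene was taken relative to its level over the libraries.

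Strain variation in the whole transcriptome was then tested over the 34 strains with both sexes. Of 15365 genes, 4837 (31.5%) varied among BXD strains beyond the difference between the mice of a strain (edgeR quasi-likelihood F test with a sex term, adjusted p under 0.05). The DESeq2 likelihood ratio test called 7936 (51.6%), and the shares of all genes given here are those of edgeR. The median gene had an SD of 0.24 log2 over the means of all 45 BXD strains and of 0.24 within the 34 strains, and a median intraclass correlation of 0.23. Genes called between the parents had a median intraclass correlation of 0.71, and 1290 of the 1509 (85.5%) varied among strains. Of 494 X-linked genes, 19% varied.

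Genes that varied without splitting included Sfi1, a centrosomal protein, which was at 8.95 CPM in BXD62/RwwJ (8.36 in the male and 9.55 in the female) and at 136.7 CPM in BXD73/RwwJ (100.7 and 172.6), with an intraclass correlation of 0.96 and an edgeR adjusted p of 4.48e-20, and it was higher in DBA/2J by 2.78 log2. Slc15a2, a peptide transporter, ranged from 0.435 CPM in BXD19/TyJ to 21.6 CPM in BXD73/RwwJ, with a median of 3.69 and an intraclass correlation of 0.83. Kcne1, an accessory subunit of the slow delayed rectifier channel, ranged from 2.04 CPM in BXD75/RwwJ (1.57 and 2.51) to 23.1 CPM in BXD74/RwwJ (21.01 and 25.3), with a median of 6.41, an intraclass correlation of 0.84 and an edgeR adjusted p of 4.04e-10. Hcn4, the pacemaker channel, ranged from 5.07 CPM in BXD15/TyJ to 23.9 CPM in BXD66/RwwJ. Both BXD19/TyJ libraries and the BXD73/RwwJ female, which give extremes of Sfi1 and Slc15a2, are among the libraries that stood apart, and Slc15a2 was at 14.2 CPM in the male and 29.05 CPM in the female of BXD73/RwwJ. In these 4 genes the male and female of the extreme strains lay on the same side of the strain median.

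In other variable genes the highest level came from a single mouse. Ucp1, the brown fat uncoupling protein, reached 57.8 CPM in the female of BXD51/RwwJ, which has no male library, against a strain median of 0.832 CPM, with an intraclass correlation of 0.03. Cfd, the adipocyte protease adipsin, averaged 76.5 CPM in BXD15/TyJ but was at 6.04 CPM in the female. Pcdhgc4, a protocadherin, was at 44.7 CPM in the BXD51/RwwJ female, against a strain median of 1.77 CPM. This female is one of the 8 libraries that stood apart, and BXD51/RwwJ was not in the strain test or the intraclass correlation, which took strains with both sexes. Pck1, a gluconeogenic enzyme, was at 53.9 CPM in the male and 2.92 CPM in the female of BXD15/TyJ. This male had the highest sum of adipose markers, 244 CPM against 14.2 CPM in the female, and Cfd is itself an adipose marker. Alb, plasma albumin, was at 1.03 CPM in the male and 95.0 CPM in the female of BXD14/TyJ, and its parental call rests on the DBA/2J male (104.6 CPM, against 0.506 in the female). Adipose markers summed to 1.40 to 244 CPM over BXD libraries, blood markers to 567 to 24400 CPM and atrial markers to 24.8 to 4706 CPM, and no marker of these lists was at 0 in all libraries. Their part in the variation of single genes was not tested, and fewer cells of a type cannot be told apart from less RNA per cell in bulk RNA. The tissue is labelled heart, and the labels do not say whether atria were included.

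Some genes varied among the BXD strains without a call between the parents, whose 5 libraries do not exclude a difference. Of 4837 strain-variable genes, 1611 had no parental call and a parental difference under 0.2 log2. They were 20.4% of the 7892 genes with such parental values, a smaller share than the 31.5% of all genes, with a median intraclass correlation of 0.43. Lgi1, a secreted leucine-rich repeat protein, ranged from 0.859 CPM in BXD51/RwwJ to 14.2 CPM in BXD36/TyJ, with a parental difference of -0.09 log2. Both strains have a single library, a female that stood apart and a male, so neither entered the strain test or the intraclass correlation of 0.75. Hbb-bt, a beta globin, and Ppbp, a platelet chemokine, were highest in BXD14/TyJ, at 1317 and 23.4 CPM in the male and 159.2 and 5.60 CPM in the female, against strain medians of 161.6 and 4.52 CPM. Hbb-bt is itself a blood marker, and this male had the highest sum of blood markers, 24400 CPM, whose part in these values was not tested. Gbp6, an interferon-induced GTPase, was lowest in BXD20/TyJ (18.6 CPM in the male and 18.7 in the female) and highest in BXD73/RwwJ (89.6 and 267), whose female library stood apart.

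In edgeR the interferon response list had the largest share of variable genes among the functional lists, with 18 of 18 genes called against 31.5% of all genes tested. The count was also 18 of 18 without the 8 libraries that stood apart. In limma on log2(TPM + 1) it was 16 of 18, and 17 of 19 for the antigen presentation list. Irf7, a transcription factor that amplifies interferon production, ranged from 4.05 CPM in BXD34/TyJ to 44.3 CPM in BXD73/RwwJ, where the male was at 14.4 and the female at 74.2 CPM. Ifit1 and Ifit3, antiviral effectors, ranged from 2.52 to 21.8 CPM and from 3.85 to 37.02 CPM, also with BXD73/RwwJ highest. Zbp1, a nucleic acid sensor, ranged from 0.601 to 7.52 CPM. The parental differences of Irf7, Ifit1, Ifit3 and Zbp1 were -0.04, -0.11, -0.02 and -0.03 log2, and the adjusted p of each was at least 0.957 in edgeR. The summed level of the list was 759 CPM in the BXD73/RwwJ female, the highest of the BXD libraries, where the lowest was 98.8. This female also had the largest deviation of the libraries that stood apart, 0.579 log2, and its part in the levels of BXD73/RwwJ was not tested. The antigen presentation list had 18 of 19 genes called, and 12 of 19 without the libraries that stood apart. H2-K1, a class I heavy chain, was at 575 CPM in this BXD73/RwwJ female, against a strain median of 100.0 CPM.

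Nuclear genes of oxidative phosphorylation varied in a way that followed the libraries. Of 74 nuclear genes for its subunits, 58 (78.4%) varied among strains, but 3 did so without the 8 libraries that stood apart and 22 with the length trend as a covariate. The summed level of the list was 35200 to 62400 CPM in those 8 libraries and 22300 to 34500 CPM in the others. Of 13 mitochondrially encoded protein genes 11 varied among strains, against 31.5% of all genes. The count was 11 without the 8 libraries that stood apart and 10 with the length covariate, but 5 in limma on log2(TPM + 1). In edgeR 8 of the 13 were higher in C57BL/6J than in DBA/2J, against 4.3% of all genes.

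The other heart lists were mixed. Of 17 sarcomere genes, 10 varied among strains, against 31.5% of all genes, and 6 did without the libraries that stood apart. Of 20 fatty acid oxidation genes 9 varied, and 6 did without those libraries. Of 16 ion channel genes 8 varied, of 14 calcium handling genes 4, and of 17 extracellular matrix genes 6, and without those libraries the counts were 10, 4 and 6. Among calcium genes Asph, which gives rise to junctin and junctate, was bimodal at 158.6 to 194.2 CPM in 19 strains and 215 to 290 CPM in 26, with C57BL/6J at 183.9, 135.6 and 169.7 CPM and DBA/2J at 230 and 238 CPM. Of 7 genes of the fetal and stress program 5 varied and 3 were higher in DBA/2J, against 31.5% and 5.52% of all genes. Nppb, brain natriuretic peptide, ranged from 14.02 CPM in BXD85/RwwJ (15.8 in the male and 12.3 in the female) to 323 CPM in BXD19/TyJ (350 and 297), both libraries of which stood apart. Clock genes had 12 of 17 called, and 7 without the libraries that stood apart. Dbp, a clock output factor, ranged from 6.44 CPM in BXD38/TyJ to 151.9 CPM in BXD9/TyJ, whose male library stood apart.

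A list of 5 genes that the study examined was followed as well, and Acsl6, which the study picked with these hearts in view, is not independent evidence. Acsl6, an acyl-CoA synthetase, ranged from 6.30 CPM in BXD51/RwwJ to 18.9 CPM in BXD36/TyJ with a median of 12.5, and the parental difference was -0.05 log2. As for Lgi1, neither of these strains was in the strain test, which gave an intraclass correlation of 0.62 and an edgeR adjusted p of 2.17e-04 for Acsl6. Fasn, fatty acid synthase, was at 21.6 CPM in the male and 463 CPM in the female of BXD12/TyJ. Adipose markers summed to 2.72 CPM in this male and 62.1 CPM in this female, and their part in the level of Fasn was not tested. Of these 5 genes 4 varied, and 2 did without the libraries that stood apart, where the shares of all genes were 31.5% and 31.7%.

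The position of bimodal genes was not used by the rule, and it was examined next. Of 600 autosomal bimodal genes with the parents in opposite classes, 580 had another such gene within 10 Mb. In 386 of them (66.6%) at least 80% of the strains had the same parental class as in a gene within 10 Mb. The number was 347 of 421 for protein-coding genes, and the share was 22.6% for pseudogenes. Some genes named above fell short of 80% with every such gene within 10 Mb. The best agreement was 42.2% for Tnni3k and Asph, 53.3% for Eps8l1, 55.6% for Rab6b, 60% for Hmga1b and 66.7% for Eno1b. Pairs of bimodal genes under 1 Mb apart put a median of 95.6% of strains in the same parental class (422 pairs). The value was 84.4% at 1 to 5 Mb, 73.3% at 5 to 10 Mb and 60% at 10 to 25 Mb, and it was 51.1% for genes on different chromosomes. At 10 to 25 Mb the median was 63.2% in the TyJ strains and 57.7% in the RwwJ strains.

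**Figure D4:**
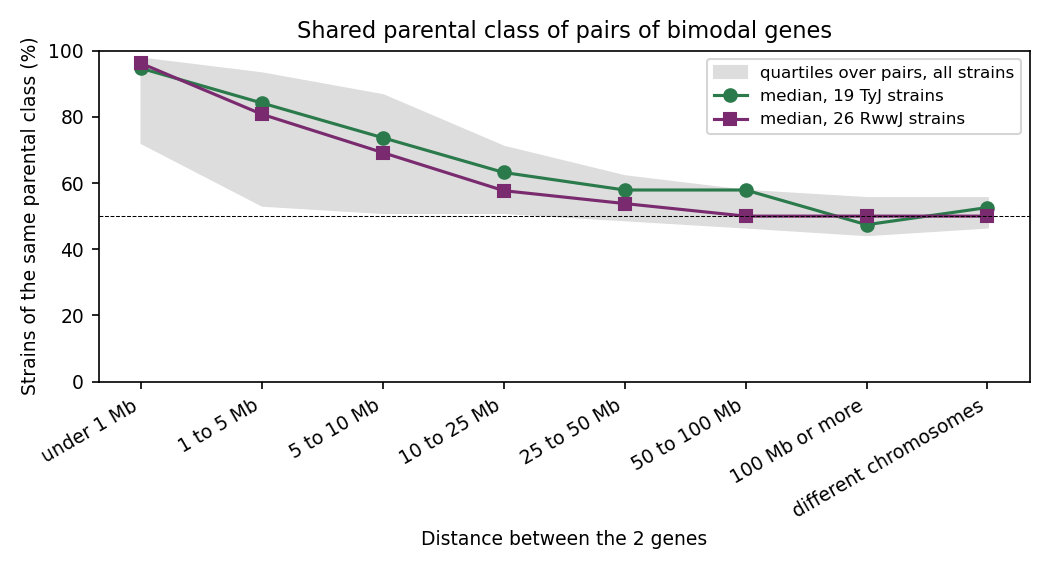
Percentage of BXD strains with the same parental class in both genes of a pair (vertical axis), by the distance between the genes (horizontal axis). Lines are medians over pairs in the 19 TyJ (circles) and 26 RwwJ (squares) strains, grey marks the quartiles over all strains, and the dashed line is 50%. The medians decline from 94.7% and 96.2% under 1 Mb towards the dashed line.

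Changes of parental class along the chromosomes were counted per strain over 386 such genes in 166 bins of 5 Mb on 19 autosomes. RwwJ strains changed class 31.5 ± 4.88 times (SD, n = 26, range 19 to 39) and TyJ strains 22.7 ± 3.25 times (SD, n = 19, range 15 to 29). The difference of 8.8 was larger than the spread between strains (two-sided permutation test over strains, 100000 resamples, p 2e-05, the smallest these can give), although the ranges overlap. Counted gene by gene without bins the difference was 3.98 (p 0.467). BXD48/RwwJ had 39 changes, and BXD32/TyJ, with 1 library, had 15.

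The DBA/2J-like share over the 386 genes had a median of 48.7% and ran from 21% in BXD20/TyJ to 84.5% in BXD32/TyJ. It averaged 49.4 ± 12.4% in TyJ strains (SD, n = 19) and 48.6 ± 7.36% in RwwJ strains (SD, n = 26). Along the genome, the bin at 85 to 90 Mb of chromosome 10, where Stab2 lies, had 8 DBA/2J-like strains and 9 tied, and bins of chromosome 7 at 15 to 20 and 65 to 70 Mb had 11 each with 0 tied. The bin with the most was chromosome 14 at 65 to 70 Mb, with 35 strains.

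**Figure D5:**
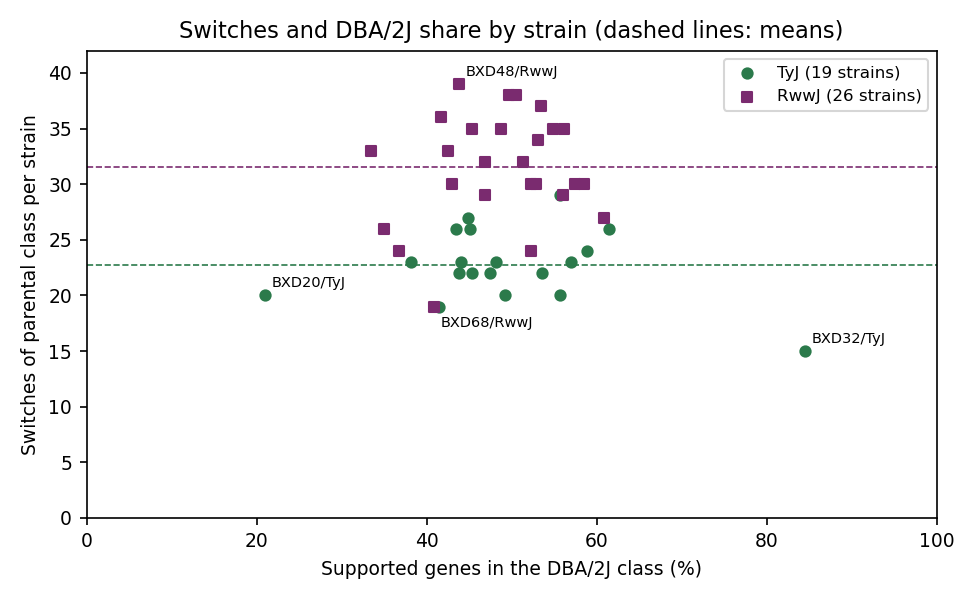
Changes of parental class per strain (vertical axis) against the percentage of the 386 genes in the DBA/2J class (horizontal axis) for 19 TyJ (circles) and 26 RwwJ (squares) strains, with dashed lines at the means of 22.7 and 31.5. BXD20/TyJ and BXD32/TyJ lie at the ends of the horizontal axis, at 21% and 84.5%.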

How the data were processed

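RNA from mouse hearts was sequenced as paired-end polyA libraries. Per the labels and the study's methods, the authors quantified reads with kallisto 0.46 against GRCm38.p6 transcripts, and the deposited tables hold estimated counts and TPM per gene, scaled by the authors to transcript length and depth. That reference carries C57BL/6J sequence, and its effect on DBA/2J alleles was not tested. Of 36558 genes 35935 were named from GENCODE M21. Estimated counts were rounded, since 33.3% of all values and 57.5% of positive values lay more than 0.001 from a whole number. Genes with at least 0.5 CPM in at least 8 libraries were kept (15365), and printed CPM use TMM-scaled library sizes.

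Strain and parental differences were tested in edgeR 4.0.16 (quasi-likelihood F test, TMM, sex term, Benjamini-Hochberg adjustment, threshold 0.05), the first over 34 strains with both sexes and the second with all 84 libraries in 1 fit. Bimodality used strain means of log2 CPM (prior count 2, sex removed) as described. Alternatives used DESeq2 1.42.0, limma 3.58.1 on log2(TPM + 1) and log2(TPM + 0.1), other filters, scaling to library totals, single sexes, TyJ or RwwJ strains alone, and left-out libraries. The limit of 0.25 log2 for libraries that stood apart was chosen after seeing the data. The fits were tested on simulated data. Counting depth was at least 28.99 M counts per library.

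The libraries, gene lists and rules were chosen with earlier results of these data known. The text names genes of the lists, the 10 bimodal protein-coding genes with the largest parental difference in each direction (higher class of at least 5 CPM), the 8 most variable genes that were not bimodal, and the 6 most variable genes with a parental difference under 0.2 log2. Some genes that these rules name are not reported here. The genes at the edge of the rule were added after their values were seen. The 2 C57BL/6J males differed beyond counting noise and were kept as separate samples.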

Additional observations from a re-analysis of the deposited data

How the results depend on the processing

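Counts of strain-variable genes ranged from 4023 to 5627 over alternatives that kept the strains and tool type, but DESeq2 called 7936, the TyJ strains alone gave 991 and the RwwJ strains alone 2983, with fewer strains in the fit. The parental count was 2508 with library totals, 2939 on log2(TPM + 1), 2688 on log2(TPM + 0.1), 2445 without the 8 libraries that stood apart and 2828 with the length covariate; the cause was not tested. The share higher in DBA/2J was 92.7% on log2(TPM + 0.1), with a median shift of 0.42 log2. Leaving out 1 parental library gave 822 to 1277 calls, with 822 and 915 without a DBA/2J library. The parental difference of Alb was -2.7 log2 without the DBA/2J male and 6.18 without the female. Bimodal genes numbered 1636 with classes of at least 10% of strains and 390 at a mean of 5 CPM or more, where 281 had the parents in opposite classes. The difference in class changes between RwwJ and TyJ was 3.98 (p 0.467) gene by gene and 6.11 to 10 under the other alternatives. Over 119 named genes the parental refits kept direction and call in 1701 of 1785, and the strain refits in 1154 of 1309. No paired analysis was possible because replicate numbers in the labels do not pair samples across strains.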

Other observations

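Pseudogenes and recent gene copies gave a pattern of their own. Of 120 bimodal pseudogenes whose classes matched no other bimodal gene nearby, 94 (78.3%) matched a gene on another chromosome in at least 90% of strains, and DBA/2J was in the upper class for 92.5% of the 120. Among 74 such protein-coding genes 28 (37.8%) did, and among the 386 genes that matched a neighbour 9 (2.33%) did. Hmga1b on chromosome 11 and Hmga1, a chromatin protein gene on chromosome 17, had the same parental class in 45 of 45 strains. Where Hmga1b was at a median of 0.241 CPM, Hmga1 was at 44.2 CPM, and where Hmga1b was at 35.1 CPM, Hmga1 was at 8.73 CPM. Eno1b on chromosome 18 and Eno1, the glycolytic enolase gene on chromosome 4, also shared the class in 45 of 45 strains, with 0.347 against 50.3 CPM for the first and 113.1 against 50.8 CPM for the second. Tdg-ps and Tdg, a DNA repair glycosylase, behaved alike, at 0.057 against 1.78 CPM and at 13.3 against 6.75 CPM. Near-identical copies share reads, so how counts were divided within such a pair is uncertain, and the values of each copy alone should be read with that limit.

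Sln, sarcolipin, and Mybphl, a myosin-binding protein, both abundant in atria, had the same class in 45 of 45 strains though they lie on chromosomes 9 and 3. Neither passed the test for strain differences (edgeR adjusted p 0.808 and 0.81).

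The 22 other inbred strains with both sexes were about as variable as the 34 BXD strains. The median SD over strains was 0.24 log2 against 0.22 over all genes, and 0.49 against 0.46 over genes called between the parents, and the other strains had the larger SD in 59.1% of all genes and in 51% of those called between the parents.

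In BXD24/TyJ-Cep290<rd16>/J, named for the rd16 allele of Cep290, the level of Cep290 was 10.6 CPM against a median of 10.1 over strains.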
